A study of Homo sapiens with 6 samples.

Results

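The genes described here are the receptors ERBB2, ERBB3 and ERBB4, their ligands, the neuregulins NRG1, NRG2, NRG3 and NRG4, and SHC1, SHC2 and GRB7, adaptor proteins that bind the activated receptors. All 10 were found by their symbols among the 19974 annotated genes of the deposited table. Their transcripts were read by RNA-seq in Huh7 P, an untreated parental line of human hepatocellular carcinoma cells, and in Huh7 LR, the lenvatinib-resistant line derived from it, with 3 samples each. Lenvatinib is a multikinase inhibitor that is directed at VEGF and FGF receptors, among others. Huh7 LR cells were exposed to lenvatinib from 1 up to 20 μM over 10 months and were then kept in 20 μM. Both lines are labelled as wild type. Huh7 LR is a single derived line, so that resistance, drug exposure and 10 months of separate culture cannot be told apart. Each library held between 62738937 and 71427573 counted reads.

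ERBB receptors are tyrosine kinases of the cell membrane. A ligand opens the receptor so that it can pair with another member of the family, and the pair then phosphorylates tail tyrosines on which adaptors dock. ERBB2 has no known ligand and serves as the preferred partner of the others. ERBB3 binds neuregulins, has only a weak kinase and recruits PI3-kinase strongly, and ERBB4 binds neuregulins and has a working kinase. NRG1 and NRG2 bind ERBB3 and ERBB4, whereas NRG3 and NRG4 bind ERBB4. In the liver, hepatocytes carry EGFR and ERBB3. GRB7 lies beside ERBB2 on chromosome 17 and is co-amplified with it in some tumours.

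Huh7 LR cells exhibited higher transcript levels of the ligand genes NRG1, NRG3 and NRG4, of the adaptor genes SHC2 and GRB7 and, to a smaller extent, of ERBB2 and ERBB3. On counts, the largest of these rises was that of NRG3, at 7.60-fold. In the authors' length-scaled values (FPKM), NRG1 rose more, 11.03-fold against 8.09-fold for NRG3. SHC1 was lower by a small margin that depended on single libraries. ERBB4 and NRG2 were at or close to 0 counts in both lines. Levels are given as CPM, counts scaled to library size. The lines were set against each other by the quasi-likelihood test of edgeR, and p was adjusted by Benjamini and Hochberg's method over all 17531 genes and loci with enough counts. A gene is said to have risen or fallen where the adjusted p was under 0.05. The name "called" is kept for genes that changed more than 2-fold with an adjusted p below 0.001. Of the 10 genes, 8 had enough counts to test, of which 7 were higher and 1 was lower in Huh7 LR. Among all genes and loci tested, 23.3% were higher and 22.4% lower by the same rule, or 45.7% together. NRG1 passed the filter on low counts only through its Huh7 LR libraries, so that its inclusion itself depended on a difference. The called genes were 2, NRG3 and SHC2, both higher, against 4.43% of all genes and loci called higher and 1.78% called lower. In each of the 8 genes, the 3 libraries of Huh7 LR lay outside the range of the 3 libraries of Huh7 P, a separation found in 55.9% of all genes and loci tested. The median log2 change was 0.83 over the 8 genes and 0.0046 over all genes and loci tested. The first median includes NRG1, so that it is not free of the way NRG1 entered.

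**Figure D1:**
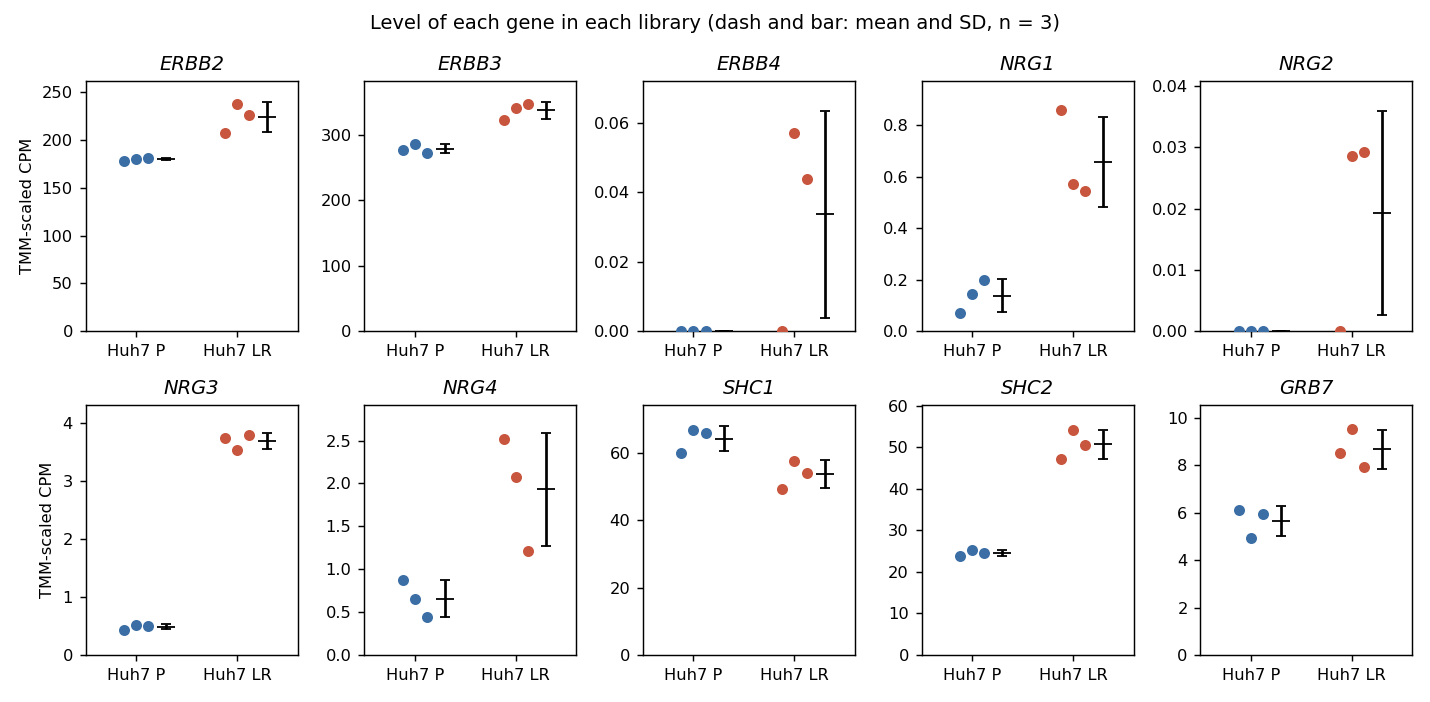
Level of each of the 10 genes in each library, in CPM (vertical axes start at 0 and differ between panels), with Huh7 P in blue and Huh7 LR in red, and with dashes and bars for the mean and SD of 3 libraries. NRG3 averaged 0.485 CPM in Huh7 P and 3.69 CPM in Huh7 LR, and the Huh7 P points of ERBB4 and NRG2 lie at 0.

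RefSeq promoter windows on GRCh38.p14 were at hand for 7 of the 10 genes, all but NRG1, ERBB3 and GRB7. Those of NRG3, NRG4 and SHC2, which changed most among the genes with a window, and of SHC1, the relative of SHC2, are given below. The 250 bases before each start are printed from 5′ to 3′ on the gene's own strand. Capitals mark the GC box GGGCGG, the CCAAT box CCAAT, the AP-2 motif GCCNNNGGC and the TATA box TATAAA, each searched on both strands.
NRG3, chr10:81875064-81875313, plus strand: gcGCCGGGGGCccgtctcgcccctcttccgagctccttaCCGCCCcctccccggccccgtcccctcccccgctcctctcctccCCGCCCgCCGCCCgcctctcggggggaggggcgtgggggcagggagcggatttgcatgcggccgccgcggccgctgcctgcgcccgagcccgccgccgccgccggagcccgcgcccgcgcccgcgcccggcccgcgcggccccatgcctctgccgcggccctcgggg
NRG4, chr15:76012425-76012674, minus strand: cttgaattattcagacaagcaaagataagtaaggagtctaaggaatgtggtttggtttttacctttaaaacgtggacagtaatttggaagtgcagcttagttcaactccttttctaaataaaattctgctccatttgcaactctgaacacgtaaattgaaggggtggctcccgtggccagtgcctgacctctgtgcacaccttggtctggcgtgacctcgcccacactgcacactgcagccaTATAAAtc
SHC2, chr19:461034-461283, minus strand: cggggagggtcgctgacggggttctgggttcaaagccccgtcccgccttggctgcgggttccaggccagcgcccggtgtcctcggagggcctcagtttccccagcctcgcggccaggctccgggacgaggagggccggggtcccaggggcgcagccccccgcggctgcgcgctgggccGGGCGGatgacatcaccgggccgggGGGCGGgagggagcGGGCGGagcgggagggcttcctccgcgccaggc
SHC1, chr1:154974377-154974626, minus strand: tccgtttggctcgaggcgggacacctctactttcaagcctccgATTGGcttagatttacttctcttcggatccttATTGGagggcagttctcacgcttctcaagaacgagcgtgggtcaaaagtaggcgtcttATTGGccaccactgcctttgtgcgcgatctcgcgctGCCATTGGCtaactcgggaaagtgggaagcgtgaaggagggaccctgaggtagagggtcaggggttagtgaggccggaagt
The windows of NRG3 and SHC2 held 3 GC boxes each and 41 and 29 CpG dinucleotides, against a median of 11 CpG over all 35116 windows. A GC box was present in 42.6% of all windows. The NRG4 window, which belongs to a start inside the gene's annotated span, held 5 CpG and a TATA box, a motif present in 10.7% of all windows. The SHC1 window held 4 CCAAT boxes, of which 1 lies within its AP-2 motif, and no GC box. A second SHC1 window, chr1:154970748-154970997, held 2 GC boxes and 1 CCAAT box, so that the content depends on the start chosen. A second NRG3 window, which overlaps the printed one, held 3 GC boxes and 33 CpG. CCAAT was present in 32.0% of all windows and the AP-2 motif in 19.8%. The letters GTAAACA, the core bound by FOXO factors, were in none of the 10 windows of these genes and in 3.0% of all windows. These matches describe letters only, and binding was not measured.

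Among the receptors, ERBB2 (ENSG00000141736, GRCh38 chromosome 17, 39687914 to 39730426, plus strand) had 178, 180 and 181 CPM in Huh7 P and 207, 237 and 226 CPM in Huh7 LR. All the Huh7 LR libraries lay above the tight range of Huh7 P. The means were 180 ± 1.38 CPM and 223 ± 15.6 CPM (SD, n = 3), a rise of 1.24-fold with a 95% interval of 1.12 to 1.39 (log2 change 0.31 ± 0.07 SE, edgeR adjusted p = 0.00414). ERBB2 is the ligandless partner receptor, and small parts of its exons lie opposite to MIEN1 (5.53%) and PGAP3 (1.88%) on the other strand. Neither neighbour passed the test, with log2 changes of 0.13 for both.

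ERBB3 (ENSG00000065361, chromosome 12, 56076799 to 56103505, plus strand) had 278, 287 and 273 CPM in Huh7 P and 324, 341 and 348 CPM in Huh7 LR. The lines did not overlap. The means were 279 ± 7.11 CPM and 338 ± 12.7 CPM (SD, n = 3), a rise of 1.21-fold with a 95% interval of 1.10 to 1.34 (log2 change 0.28 ± 0.07 SE, edgeR adjusted p = 0.00554). ERBB3 is the neuregulin receptor with the weak kinase, and per length (FPKM) it was the most abundant of the 10 genes in both lines.

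Because ERBB3 shares exon sequence with another listed gene, the assignment of its reads was examined. That gene, AC034102.2 (ENSG00000257411, chromosome 12, 56101331 to 56109289, plus strand), overlaps 31 of the 9039 exon bases of ERBB3 (0.34%). It had a single count in Huh7 P replicate 3 and 0 counts in the other libraries. With so few counts in AC034102.2, a sum with it could hardly differ from ERBB3 alone and is no separate check of the rise. The sum had a log2 change of 0.28 ± 0.07 (SE, edgeR adjusted p = 0.00554). The summed CPM did not overlap between the lines (two-sided exact permutation test, p = 0.1, the smallest that 3 samples against 3 allow). AC034102.2 also overlaps 458 exon bases of the next gene, PA2G4, which encodes the ERBB3-binding protein EBP1. PA2G4 itself shares no exon base with ERBB3. PA2G4 was counted 27722, 25419 and 27775 times in the replicates of Huh7 P, compared with 14135, 20438 and 17036 times in those of Huh7 LR, a log2 change of -0.69 (edgeR adjusted p = 2.39e-04). Only when all 3 genes were joined in a chain did the sum fall, with a log2 change of -0.22 (edgeR adjusted p = 0.0341). In that sum PA2G4 fell from 408 to 253 CPM while ERBB3 rose from 279 to 338 CPM.

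**Figure D2:**
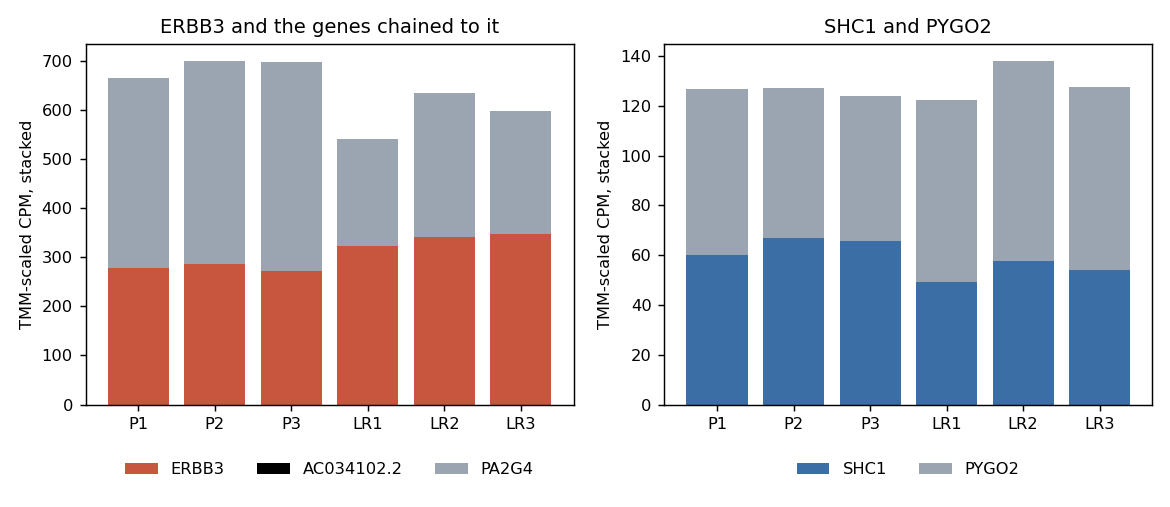
Stacked CPM in each library for ERBB3 with the genes chained to it by shared exons (left) and for SHC1 with PYGO2 (right), both axes starting at 0. The ERBB3 segment is taller in the 3 Huh7 LR libraries while the PA2G4 segment shrinks and AC034102.2 is too low to be seen, and the summed height of SHC1 and PYGO2 is similar in both lines.

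ERBB4 (ENSG00000178568, chromosome 2, 211375717 to 212538841, minus strand) was without a count in all 3 libraries of Huh7 P, and Huh7 LR gave 0, 4 and 3. With 0 counts observed, up to 3 remain possible, or 0.042 to 0.0478 CPM depending on the library (counting error only). ERBB4 was therefore not tested, and no fold is given. It is the receptor on which the known binding of NRG3 and NRG4 rests.

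Levels of different genes were compared per length, on the authors' FPKM values. In Huh7 P the order was ERBB3 at 46.7 ± 1.20 FPKM, ERBB2 at 36.5 ± 0.347 FPKM and EGFR at 30.9 ± 2.19 FPKM (SD, n = 3), with no overlap between neighbours. In Huh7 LR, ERBB3 at 56.6 ± 1.11 FPKM and EGFR at 56.4 ± 0.563 FPKM (SD, n = 3) overlapped, and both lay above ERBB2 at 46.2 ± 2.74 FPKM (SD, n = 3). EGFR, the founding receptor of the family, thus moved from the third place to the level of ERBB3 (log2 change in counts 0.84, edgeR adjusted p = 5.22e-06). ERBB3 stood to ERBB2 at a ratio of 1.26 to 1.30 in Huh7 P and 1.16 to 1.29 in Huh7 LR. The log2 ratio fell by 0.063, with SDs of 0.026 and 0.077 within the lines (two-sided exact permutation test, p = 0.3). EGFR stood to ERBB3 at 0.629 to 0.714 in Huh7 P and 0.969 to 1.02 in Huh7 LR (two-sided exact permutation test, p = 0.1, the smallest possible), a ratio added after its values were seen. The place of EGFR depended on the length used. With counts divided by all merged exon bases of each gene, EGFR stood to ERBB2 at 1.41 to 1.62 in Huh7 P and to ERBB3 at 1.22 to 1.32 in Huh7 LR, so that it ranked above ERBB2 in the first line and above both in the second.

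**Figure D3:**
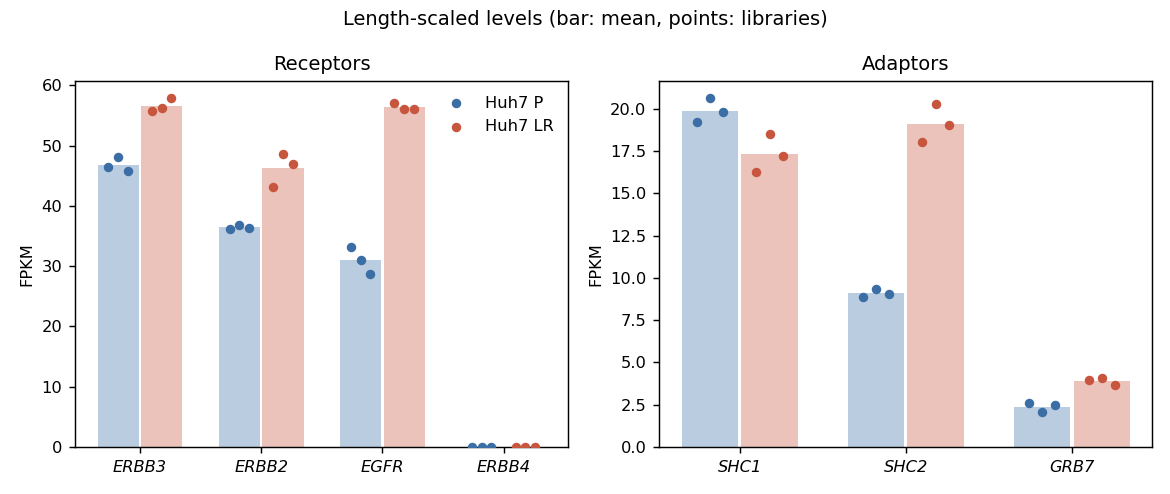
FPKM of the receptors (left) and the adaptors (right), with bars from 0 for the mean and points for the 3 libraries of Huh7 P (blue) and Huh7 LR (red). EGFR rose from 30.9 to 56.4 FPKM, next to ERBB3 at 56.6 FPKM in Huh7 LR, and SHC2 rose from 9.09 to 19.1 FPKM while SHC1 stood at 19.9 and 17.3 FPKM.

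Among the ligands, NRG3 (ENSG00000185737, chromosome 10, 81875314 to 82987179, plus strand) was counted 31, 32 and 33 times in the replicates of Huh7 P, compared with 244, 248 and 259 times in those of Huh7 LR. The replicates of each line were nearly equal and far apart from those of the other. Scaled to library size, NRG3 rose from 0.485 ± 0.0465 CPM to 3.69 ± 0.135 CPM (SD, n = 3), a rise of 7.60-fold with a 95% interval of 5.72 to 10.1 (log2 change 2.93 ± 0.19 SE, edgeR adjusted p = 1.05e-06). On log2(FPKM + 1), a scale that understates changes of low genes, the log2 change was 1.05 for NRG3 and 0.75 for NRG4. NRG3 is best known from the nervous system, and no listed gene shares its exons. Its GC-rich promoter is printed above.

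NRG4 (ENSG00000169752, chromosome 15, 75935969 to 76059795, minus strand) was counted 63, 40 and 29 times in the replicates of Huh7 P, compared with 164, 145 and 83 times in those of Huh7 LR. Replicate 3 of Huh7 LR, at 1.22 CPM, lay nearest to Huh7 P, whose highest library had 0.878 CPM. NRG4 rose from 0.657 ± 0.217 CPM to 1.93 ± 0.660 CPM (SD, n = 3), or 2.93-fold with a 95% interval of 1.79 to 4.80 (log2 change 1.55 ± 0.32 SE, edgeR adjusted p = 0.00252). NRG4 is known as a secreted signal of brown fat that acts on liver. Of its exon bases, 38.1% lie opposite to exons of FBXO22, and whether counting used strand is not stated. FBXO22 was the far more abundant gene and fell from 58.6 to 48.1 CPM, in the direction opposite to NRG4.

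NRG1 (ENSG00000157168, chromosome 8, 31639386 to 32767959, plus strand), which encodes the classic ligand of ERBB3, was counted 5, 9 and 13 times in the replicates of Huh7 P, compared with 56, 40 and 37 times in those of Huh7 LR. The lines did not overlap, but both levels were low. It rose from 0.138 ± 0.0649 CPM to 0.657 ± 0.175 CPM (SD, n = 3), or 4.75-fold with a wide 95% interval of 2.39 to 9.43 (log2 change 2.25 ± 0.45 SE, edgeR adjusted p = 0.00195). In FPKM the ratio of the means was larger, 11.03 against 4.76 in CPM. FPKM divides counts by a transcript length, and the length implied by the authors' values was 6439 to 6773 bases in Huh7 P and 2346 to 4205 bases in Huh7 LR, with no overlap. NRG1 has 22 annotated transcripts of 543 to 5931 bases. The implied length depends on the scaling total, here the counts in the table, so that it is comparable between libraries and not exact in itself. For NRG3 the implied lengths overlapped between the lines, at 2487 to 3168 bases and 2584 to 2643 bases. For NRG4 they ranged from 1116 to 2458 bases within Huh7 P alone and from 1028 to 1575 bases in Huh7 LR. The measure is thus unsteady at low counts, and that of NRG1 in Huh7 P rests on 5, 9 and 13 counts. A change of NRG1 transcript was not tested.

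NRG2 (ENSG00000158458, chromosome 5, 139846779 to 140043299, minus strand) had 0 counts in all Huh7 P libraries and 0, 2 and 2 counts in Huh7 LR, within the 3 counts that a count of 0 allows. It was not tested. Per length, NRG4 at 0.359 to 0.571 FPKM lay above NRG3 at 0.137 to 0.198 FPKM in Huh7 P. In Huh7 LR, NRG3 at 1.36 to 1.49 FPKM and NRG4 at 1.20 to 1.65 FPKM overlapped, and NRG1 lay below both at 0.211 to 0.241 FPKM. All neuregulins thus remained far below the receptors ERBB2 and ERBB3 on this scale.

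Neuregulins are also made by mesenchymal and neural cells, so that markers of such cells were examined. The summed level of 5 fibroblast markers was 2.16 to 2.28 CPM in Huh7 P and 5.02 to 8.02 CPM in Huh7 LR. Most of it was COL1A1, whose mean went from 1.28 to 4.59 CPM, and PDGFRB, whose mean went from 0.808 to 1.44 CPM, whereas the others were near 0. COL1A2 was counted 0, 11 and 5 times in the replicates of Huh7 P, compared with 0, 2 and 1 times in those of Huh7 LR. COL3A1 was counted 0, 5 and 0 times and 17, 0 and 14 times in the same order, and LUM had 2 counts in Huh7 P replicate 3 and 0 elsewhere. The summed level of 5 neuronal and glial markers overlapped between the lines, at 3.53 to 5.64 CPM and 4.03 to 5.31 CPM, and STMN2 had 0 counts in every library. The summed level of 5 leukocyte markers was 62.0 to 67.6 CPM in Huh7 P and 9.70 to 13.8 CPM in Huh7 LR. LYZ was its main part, with a mean of 63.7 CPM in Huh7 P and 9.19 CPM in Huh7 LR, and CD14 averaged 1.88 and 2.71 CPM, with TYROBP and HLA-DRA at 0 counts throughout. Markers of hepatocytes and hepatoma cells, ALB and AFP among 7, summed to 39015 to 48855 CPM in Huh7 P and 51821 to 53947 CPM in Huh7 LR. Within this sum, the mean of ALB went from 12951 to 21566 CPM. That of AFP went the other way, from 22997 to 19620 CPM, and did not pass (edgeR adjusted p = 0.0923). The part of these markers in the neuregulin values was not tested. In bulk RNA, more cells of a kind and more RNA per cell cannot be told apart.

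Among the adaptors, SHC2 (ENSG00000129946, chromosome 19, 416583 to 460996, minus strand) was counted 1705, 1557 and 1606 times in the replicates of Huh7 P, compared with 3079, 3799 and 3446 times in those of Huh7 LR. SHC2 is a relative of SHC1 that is best known from neurons. It rose from 24.5 ± 0.738 CPM to 50.7 ± 3.50 CPM (SD, n = 3), or 2.07-fold with a 95% interval of 1.84 to 2.33 (log2 change 1.05 ± 0.08 SE, edgeR adjusted p = 2.51e-06). The interval reaches below 2-fold, and on log2(FPKM + 1) the log2 change was 0.99, just short of a call. No listed gene shares exons with SHC2.

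SHC1 (ENSG00000160691, chromosome 1, 154962298 to 154974395, minus strand), the widely expressed adaptor that links receptors to RAS, had 60.0, 66.8 and 65.8 CPM in Huh7 P and 49.3, 57.6 and 54.1 CPM in Huh7 LR. The lines came close but did not overlap. Its means were 64.2 ± 3.67 CPM and 53.7 ± 4.17 CPM (SD, n = 3), a log2 change of -0.26 ± 0.08 (SE, edgeR adjusted p = 0.02). The adjusted p was 0.0952 without Huh7 P replicate 2, 0.0679 without Huh7 P replicate 3 and 0.0563 without Huh7 LR replicate 3. SHC1 shares 335 of 4342 exon bases (7.72%) with PYGO2 on the same strand, which rose with a log2 change of 0.29. The summed counts of both had a log2 change of 0.04 with a 95% interval of -0.11 to 0.19 (edgeR adjusted p = 0.691). Per length, SHC2 stood to SHC1 at 0.454 to 0.461 in Huh7 P and at 1.10 to 1.11 in Huh7 LR, so that SHC2 reached the level of SHC1 (two-sided exact permutation test of the log2 ratio, p = 0.1, the smallest possible). This ratio was added after the values were seen.

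GRB7 (ENSG00000141738, chromosome 17, 39737927 to 39747291, plus strand) was counted 440, 305 and 388 times in the replicates of Huh7 P, compared with 557, 669 and 541 times in those of Huh7 LR. GRB7 binds phosphorylated ERBB2 through its SH2 domain. It rose from 5.67 ± 0.637 CPM to 8.68 ± 0.817 CPM (SD, n = 3), or 1.53-fold with a 95% interval of 1.25 to 1.87 (log2 change 0.61 ± 0.13 SE, edgeR adjusted p = 0.00285). The lines did not overlap, and no listed gene shares its exons.

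**Figure D4:**
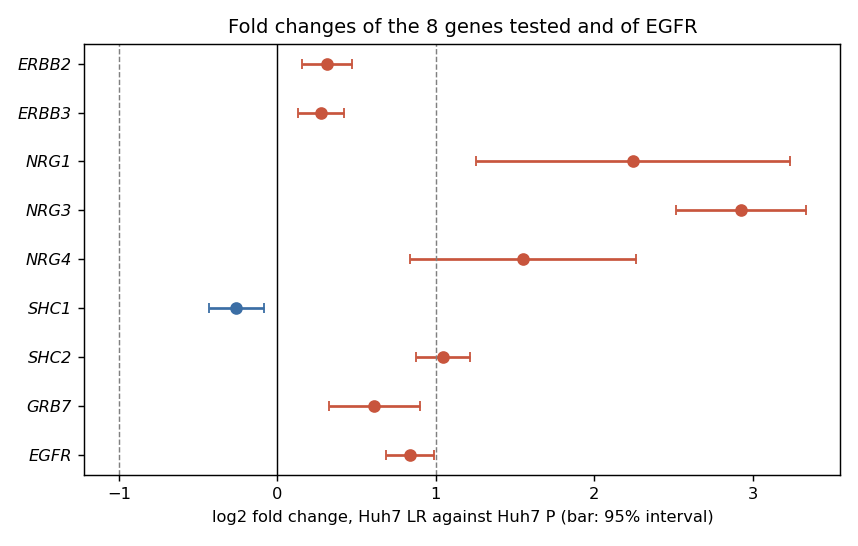
Log2 fold change of the 8 genes tested and of EGFR, Huh7 LR against Huh7 P, with 95% intervals from edgeR's fit and dashed lines at a 2-fold change in either direction. NRG3 at 2.93 stands clear of the 2-fold line, the intervals of NRG1 and NRG4 are the widest, and SHC1 at -0.26 is the only gene below 0.

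The genes around these receptors were described from 8 lists that hold 84 other genes, of which 72 had enough counts to test. In all, 21 were higher, 19 were lower and 32 did not pass, and 3 were called higher and 0 lower. These shares are 29.2% and 26.4% of the genes tested, next to 23.3% and 22.4% among all genes and loci. The median log2 change was 0.0029, next to 0.0046.

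Of 3 ligands that bind ERBB4 as well as EGFR, 2 were tested and both were higher, next to 23.3% among all genes and loci. BTC, which encodes betacellulin, and HBEGF, which encodes heparin-binding EGF-like growth factor, rose with log2 changes of 2.02 and 1.49 (adjusted p = 4.24e-04 and 1.46e-04 from edgeR's test), and both were called. The calls were not stable: with a library left out in turn, the edgeR adjusted p of BTC reached 0.00313 and passed 0.001 without Huh7 P replicate 1 or 2 or Huh7 LR replicate 2 or 3, and that of HBEGF reached 0.00125 and passed it when any Huh7 P replicate was left out. On log2(FPKM + 1) the log2 changes were 0.83 and 0.54, below 2-fold. EREG had 0 counts in every library and was not tested. The levels were low, with means of 3.82 CPM for BTC and 2.35 CPM for HBEGF in Huh7 LR.

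Of 9 chaperones and partners of ERBB2 and ERBB3, 8 were tested, of which 7 were lower and 0 higher, next to 22.4% lower among all genes and loci. Besides PA2G4, HSP90AA1, an inducible HSP90 chaperone on which ERBB2 stability depends, fell from 1854 to 1240 CPM (log2 change -0.58, edgeR adjusted p = 1.14e-04). TOB1, a growth-restraining protein that binds ERBB2, had a log2 change of -0.37. The other lower genes were HSP90AB1, CDC37, ERBIN and MEMO1, with log2 changes of -0.33 to -0.22. The lower genes were 4 without Huh7 P replicate 2, where HSP90AB1, CDC37 and MEMO1 did not pass, and 4 to 7 over the libraries left out in turn. MEMO1 also did not pass with limma on log2 FPKM or when summed with DPY30, which shares 26.5% of its exon bases. PA2G4 and the HSP90 genes have close copies in the genome, between which counting could split reads. MUC1 had a log2 change of 0.52 and did not pass (edgeR adjusted p = 0.298).

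Of 16 further adaptors and docking proteins, all tested, 4 were higher and 4 lower. These shares are 25% each, near the 23.3% and 22.4% among all genes and loci. NCK2, an SH2/SH3 adaptor, rose from 17.9 to 35.7 CPM, PLCG1, which encodes phospholipase C gamma 1, rose 1.63-fold, and GRB10, a relative of GRB7, rose 1.49-fold. GRB14, the remaining relative of GRB7, had a log2 change of 0.02 (edgeR adjusted p = 0.9). The SHC genes SHC3 and SHC4 had means of 0.209 CPM or less in both lines and did not pass. The lower genes were GAB1, PTPN11, SOS1 and SOS2, with log2 changes of -0.32 to -0.25. The remaining higher gene, GRB2, whose product links receptors to SOS proteins, had a log2 change of 0.20 (edgeR adjusted p = 0.027). GRB2 did not pass when any Huh7 P replicate or Huh7 LR replicate 3 was left out (edgeR adjusted p of up to 0.0945), which leaves 3 higher genes. The lower genes of this list were 2 without Huh7 P replicate 2 and 1 of 14 tested with limma on log2 FPKM.

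Of 14 brakes on the receptors, all tested, 2 were higher, 2 were lower and 10 did not pass. These shares are 14.3% each, below the 23.3% and 22.4% among all genes and loci. RNF41, the ubiquitin ligase that limits ERBB3, had a log2 change of 0.05 (adjusted p = 0.62), and ERRFI1, a feedback inhibitor of ERBB kinases, had -0.07 (adjusted p = 0.472), both from edgeR's test. STUB1, a ligase that acts on HSP90 clients, had a log2 change of 0.39, though 42.4% of its exon bases lie opposite to JMJD8. PTPN12 and USP8 had log2 changes of -0.35 and -0.34. Over the other settings tried, the lower genes of this list numbered 1 (without Huh7 P replicate 3, and with limma on log2 FPKM) to 3 (with WWP1, without Huh7 LR replicate 1), and the higher genes 2 to 3 (with ITCH, without Huh7 LR replicate 2). USP8 is the deubiquitinase that stabilises RNF41.

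Of 13 genes for proteases that release neuregulins or cut ERBB4, or for proteins that serve these proteases, 11 were tested. Of these, 5 were higher and 3 lower, or 45.5% and 27.3%, next to 23.3% and 22.4% among all genes and loci. With limma on log2 FPKM, 4 were higher. The lower genes numbered 2 to 4 with each library left out in turn. PSEN2, a catalytic subunit of gamma-secretase, rose 1.65-fold, and BACE1, which cleaves NRG1 and NRG3, rose 1.43-fold, with 17.2% of its exon bases opposite to RNF214. RHBDF2, which guides ADAM17 to the surface, had a log2 change of -0.64. The related RHBDF1 went the other way, from 13.5 to 18.9 CPM (log2 change 0.49, edgeR adjusted p = 0.00133). ADAM17 itself had 0.16 and did not pass (edgeR adjusted p = 0.113).

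Among 9 transcription factor genes known for ERBB2 or ERBB3, 5 were tested, of which 3 were higher and 1 lower. These shares are 60% and 20% of few genes, next to 23.3% and 22.4% among all genes and loci. FOXO4 and FOXO1, whose factors raise ERBB3 when AKT is inhibited, rose 2.63-fold and 1.98-fold. EHF, an epithelial ETS factor, fell from 1.53 to 0.757 CPM (log2 change -1.01, edgeR adjusted p = 0.00683). The AP-2 genes TFAP2B and TFAP2C had 0 counts in every library, and TFAP2A averaged 0.194 CPM in Huh7 LR.

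The neighbours of ERBB2 and GRB7 on chromosome arm 17q were examined as a group of 11 genes. Of the 7 tested, 3 were higher and 0 lower, with a median log2 change of 0.13. The share higher was 42.9%, next to 23.3% higher and 22.4% lower among all genes and loci. The 3 higher genes were GSDMB, ORMDL3 and STARD3, with log2 changes of 0.54, 0.44 and 0.28. MIEN1 and PGAP3, which overlap ERBB2, did not pass (edgeR adjusted p = 0.266 and 0.287). Of the 10 neighbours of ERBB3 on arm 12q, all tested, 2 were higher and 3 lower, with a median log2 change of -0.11. These shares are 20% and 30%. The higher genes were RAB5B and ZC3H10, with log2 changes of 0.44 and 0.28, and the lower ones were PA2G4, RPS26 and SUOX, with -0.69, -0.47 and -0.37. ZC3H10 did not pass when any library but Huh7 LR replicate 1 was left out (edgeR adjusted p of 0.077 to 0.131), and had -0.14 where genes with shared exons were summed. RPS26 has many copies in the genome, which makes its count uncertain.

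**Figure D5:**
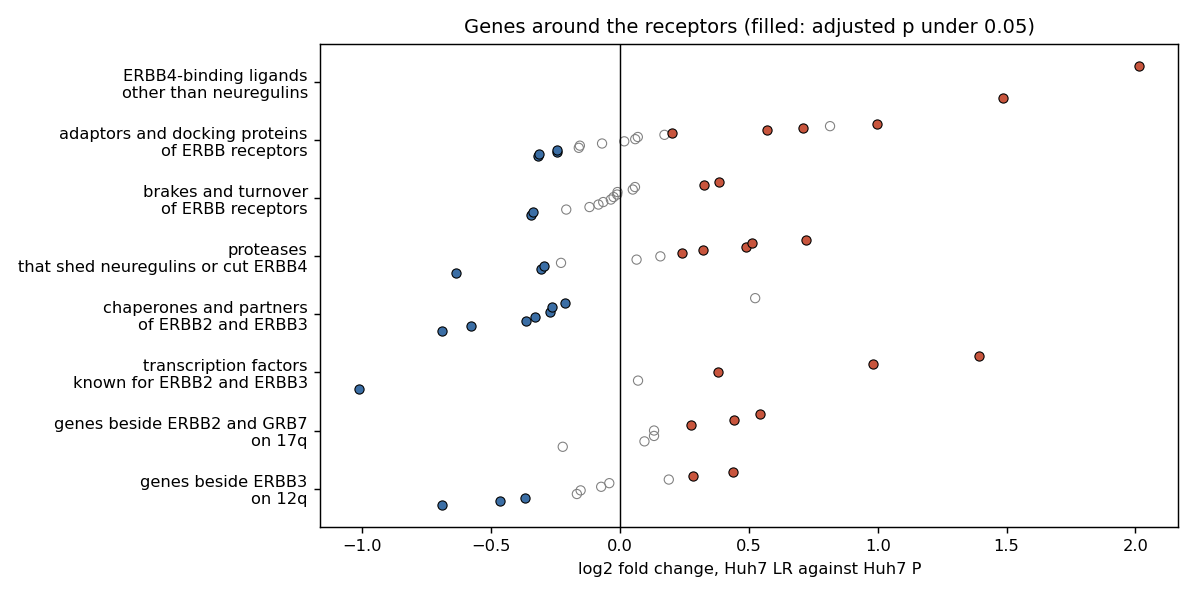
Log2 fold change of each tested gene in the 8 lists, Huh7 LR against Huh7 P, with a point per gene, filled red or blue where the adjusted p from edgeR's test was under 0.05 and open otherwise. The chaperones and partners lie below 0 except for the open point of MUC1 at 0.52, while adaptors and brakes lie on both sides.

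Across the 6 libraries, the annotated genes whose log2 CPM was most like that of ERBB2 by Pearson's r were KLHL22, EXD2 and CABLES1, with r of 0.999 for each. For ERBB3 they were SAMHD1, C2CD2 and SCARA3, with r of 0.998, 0.997 and 0.997. The libraries fall into 2 lines, and 791 and 961 of 14052 genes had r above 0.95 with ERBB2 and ERBB3, so that these names only describe the closest matches.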

How the data were processed

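The authors deposited raw read counts and FPKM values (scaled by the authors for length and library size) of each gene and library in a single table, whose 34 lines of annotation text were left out. The 6210 loci without an annotated gene, with 2.86% to 3.35% of counts, stayed in the tests. The submitters' processing notes name TopHat2, Cufflinks, DESeq and the mouse build mm10, whereas the identifiers are human. The counting program and strand setting are not given in the sources used here. The extraction text of the labels refers to an insect. All annotated identifiers were found in GENCODE release 29 (GRCh38), the source of coordinates and exon overlaps.

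The counts were tested with edgeR 4.0.16 under R 4.3.3 (filterByExpr with minimum count 10 and total 15, TMM factors of 0.977 to 1.03, quasi-likelihood test). Standard errors and 95% intervals were derived from the F statistic. CPM values are scaled by TMM, and the biological coefficient of variation was 12.7%. Alternatives used DESeq2 1.42.0, limma 3.58.1 on log2 FPKM with 0.1 or 1 added (where 3 libraries reached 0.5 FPKM), other filters, a replicate block, summed overlapping genes and left-out libraries. Figures were drawn with matplotlib 3.10.9.

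The genes and lists were chosen with earlier results of these data known, and the lists were written from general knowledge. Genes named from each list are at most the 3 with the largest change among those that passed with a mean of at least 1 CPM in a line, and others named were chosen after their values were seen. The samples of each line are described as independent. With 3 libraries a line, p-values measure only the spread between these samples. A further marker of the neuronal and glial list is not reported here.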

Additional observations from a re-analysis of the deposited data

How the results depend on the processing

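Over the alternatives, 212 values were compiled for 16 main results. Of these, 200 kept their direction and side of the threshold or stayed within 1.5 times. The 200 include 15 values for the number of members called lower, which was 0 throughout. They also include 8 for ERBB3 summed with AC034102.2, which nearly repeat ERBB3, and limma values for NRG3 and NRG4. The tally is therefore no measure of support. For 73 single genes, 1007 values were compiled, of which 932 did so. ERBB2, SHC2 and GRB7 kept their direction and stayed under an adjusted p of 0.05 in all 14 alternatives. NRG3 and NRG4 did so in those on counts. They, BTC and HBEGF entered the limma fits only through their Huh7 LR libraries, so that those fits are no support for them. NRG1 had values in 11 alternatives, of which the one without a filter did not depend on its Huh7 LR libraries for entry, and its adjusted p there was 0.00109 (edgeR). ERBB3 turned to a log2 fold change of -0.21 when all genes chained by shared exons were summed, and its sum with AC034102.2 turned to -0.22 when PA2G4 was added, which was chosen after seeing the data. SHC1 turned to 0.042 when summed with PYGO2, and with each library left out it lay between -0.31 and -0.20. The genes called higher were 4 with DESeq2's Wald test (adding NRG1 and NRG4), 4 at an adjusted p under 0.05 with the 2-fold threshold, and 1, NRG3, with limma-trend on log2(FPKM + 1), and the cause was not tested. They were 3, adding NRG4, without a filter and with limma-trend on log2(FPKM + 0.1). The genes that were lower numbered 0 to 1 with each library left out. No member was called lower in the main test or under any alternative. No alternative value is given for ERBB4 and NRG2.

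The deviations of same-numbered libraries correlated by 0.029, 0.0314 and 0.0317, so that the numbers were not taken as a pairing, although every library correlated best with its own number. With a replicate block, 3 members were called higher instead of 2, 7 rose and 1 fell, NRG4 had an adjusted p of 2.61e-04 and ERBB3 of 0.00876 in edgeR's test, and WWP1 passed among the brakes, for 3 lower genes.

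Among the list genes, the direction changed as follows. Of those named, only ZC3H10 had passed in the main test (log2 fold change 0.28, edgeR adjusted p = 0.0457). With overlapping genes summed, ZC3H10 had a log2 fold change of -0.14 and MYL6B 0.17. With limma-trend on log2 FPKM and 0.1 or 1 added, RNF41 had -0.032 and -0.0297 and PTPN9 0.0024 and 0.0025. With at least 10 counts in every library, LRIG3 had 0.0076 and PTPN9 0.0048. With each library left out, the lowest and highest values were -0.0827 and 0.33 for SHC3, -0.0307 and 0.0971 for GRB14, -0.00467 and 0.10 for RNF41, -0.0781 and 0.00349 for LRIG1, -0.14 and 0.0722 for LRIG3, -0.12 and 0.0911 for CBLB, -0.16 and 0.0253 for NEDD4, -0.0202 and 0.17 for ITCH, -0.0918 and 0.0642 for PTPN9, -0.0102 and 0.11 for NCSTN, -0.0582 and 0.16 for ELF3, -0.80 and 0.56 for NEUROD2, -0.14 and 0.36 for TCAP, -0.12 and 0.00221 for RPL41.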
